A study of Homo sapiens with 4 samples.

Results

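The genes described here code for the eukaryotic translation initiation factors (eIFs), in HaCaT keratinocytes with and without silencing of the long noncoding RNA lnc-DC. They were chosen by name: every gene whose symbol starts with EIF and a digit from 1 to 6, followed by letters or digits or by nothing, leaving out EIF2AK2, names ending in P plus digits and names with a hyphen. Of 58825 genes in the deposited table, 52 matched, and 49 of them reached a mean of at least 1 FPKM (fragments per kilobase of transcript, scaled to the fragments mapped in a library) in at least 1 group. EIF4E3, EIF4E1B and EIF1AY did not; EIF4E3 lay just below that limit, with 0.59 and 0.96 FPKM in control and 0.23 and 0.71 in knockdown cells, while the lowest gene that passed, EIF5A2, had 2.10 and 2.07 in control and 3.80 and 3.57 in knockdown cells. The rule takes in 3 kinases of eIF2 and a few genes that only bear the name, and it leaves out EIF4EBP1 and EIF4EBP2, which are no pseudogenes but end in P and a digit.

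The series holds 4 RNA-seq libraries. All came from HaCaT, an established line of human keratinocytes, grown in a medium with 1.2 mM calcium and treated with lentivirus. Control cells received shNC, a control hairpin, and knockdown cells received shlnc-DC, a hairpin against lnc-DC, with 2 libraries in each group. The labels call them biological replicates, but do not say whether transductions were separate or how many hairpins or clones were used, so each p-value reflects spread among these 4 libraries, which may be technical. The stated aim was a signature of differentiating keratinocytes with lnc-DC silenced.

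Translation of most mRNAs begins when eIF4E binds the cap at the 5′ end and joins the scaffold eIF4G and the helicase eIF4A. The small ribosomal subunit, carrying eIF1, eIF1A, eIF3, eIF5 and the initiator tRNA bound to eIF2 and GTP, is then loaded and scans for a start codon. eIF2B recharges eIF2 with GTP, and stress kinases block that step by phosphorylating the alpha subunit of eIF2. Keratinocytes make large amounts of keratin and envelope protein as they differentiate, and synthesis of initiation factors is known to follow growth signals through mTOR and MYC.

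The transcript targeted by the hairpin, WFDC21P (ENSG00000261040, chr17:60083566-60091885 of GRCh38, minus strand), had 2.15 and 2.76 FPKM in control and 0.09 and 0.29 in knockdown libraries. The groups did not overlap, and the limma adjusted p was 0.0715. Of 12 keratinocyte markers 10 reached 1 FPKM in a group, KRT14 and KRT17 did not, and KRT14 did not exceed 0.35 FPKM; their summed level was 882 to 948 FPKM in control and 567 to 615 in knockdown libraries. The part of this lower keratinocyte sum in the differences that follow was not tested. None of 6 fibroblast markers reached 1 FPKM (sums 0.60 to 0.68 in control and 0.49 to 0.61 in knockdown, COL1A2 at 0). The counts were 1 of 5 for melanocyte markers (3.38 to 4.68 and 4.13 to 4.39, TYR at 0), 2 of 5 for leukocyte markers (13.4 to 13.9 and 13.7 to 13.9, PTPRC at 0) and 1 of 3 for endothelial markers (3.61 to 4.58 and 3.93 to 6.44). Mitochondrially encoded transcripts took 41.2% and 41.9% of summed FPKM in control and 28.1% and 26.8% in knockdown libraries. FPKM is relative to a library's total, so some values are also given rescaled to genes outside the mitochondrial genome. These are values for the initiation factor genes as a set, the median of the mitochondrial factors, and signs that turned. The counts of genes without overlap, the other group medians and the other single-gene values were not rescaled in this way.

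None of the 49 initiation factor genes passed an adjusted p of 0.05 in limma's test on log2(FPKM + 1) over 12411 genes, where 31 genes or 0.250% passed, 0.113% higher and 0.137% lower in knockdown. Most of the 49 nonetheless stood somewhat higher in the knockdown libraries. In 28 genes both knockdown values lay above both control values (57.1%, against 35.6% of all tested genes), in 2 genes both lay below (4.08%, against 19.2%), and in 19 the groups overlapped. At an unadjusted p under 0.05 there were 14 genes, all higher in knockdown (28.6%, against 14.8% of all tested genes) and none lower (against 8.00%). The median difference, knockdown minus control on the log2(FPKM + 1) scale, was 0.24 for the 49 genes and 0.09 for all tested genes, and single differences ran from -0.21 to 0.66. It lay above 0 in 41 of the 49 genes (83.7%) and in 61.4% of all tested genes. The 49 include EIF2S3B, EIF3CL and EIF5AL1, coding copies of other members that are counted as genes of their own. With copies added to their source genes, 46 genes remained, with a median difference of 0.23.

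Relative to the control mean, both knockdown libraries lay above both controls, for the 49 genes and for all tested genes. The median of the 49 genes was -0.03 and 0.03 in control replicates 1 and 2. It was 0.21 and 0.26 in knockdown replicates 1 and 2. For all tested genes the medians were 0.028, -0.028, 0.115 and 0.064 in the same order. The control values mirror each other because the reference is the mean of the same 2 libraries. Summed over the 49 genes, FPKM came to 1995 and 2113 in control and 2366 and 2473 in knockdown libraries. That was 0.624% of all FPKM in each control library and 0.872% and 0.899% in the knockdown libraries; with mitochondrially encoded transcripts taken out of the total, it was 1.06% and 1.07% in control and 1.21% and 1.23% in knockdown libraries.

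Part of the shift depended on scaling. With values rescaled to genes outside the mitochondrial genome, the median of the 49 genes was 0.20, against 0.06 for all tested genes, and 39 of 49 lay above 0 (79.6%, against 57.0% of all tested genes). Under median centring, which sets the middle of all genes equal between libraries, it was 0.16 against 0.01, 36 of 49 lay above 0 (73.5%, against 51.4% of all tested genes), and 6 genes were higher at an unadjusted p under 0.05 (12.2%, against 9.54% of all tested genes), a share near the background. Quantile normalization also left 36 of 49 above 0, against 53.1% of all tested genes. In limma fits without 1 library, which assume that the lone library varies like the other group, 8 of 49 were higher at that threshold without control replicate 1 (16.3%, against 12.1% of all tested genes). Without control replicate 2, knockdown replicate 1 or knockdown replicate 2 the number was 6 each time (12.2%, against 9.27%, 7.78% and 8.97%). Differences were lower at higher GC content across all 12394 tested genes with a GC value (Spearman rho -0.217, and -0.0588 within the 49 genes). The 49 genes had a median GC of 45.8% against 47.9%. With the trend on GC and length removed, the median of the 49 genes was 0.24, against 0.09 for all tested genes. In that setting 39 lay above 0 (79.6%, against 61.2% of all tested genes), and 21 were higher at an unadjusted p under 0.05 (42.9%, against 17.8%). The part of GC content in the differences was not tested. In bulk RNA a smaller number of cells of a type and less RNA per cell cannot be told apart.

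**Figure D1:**
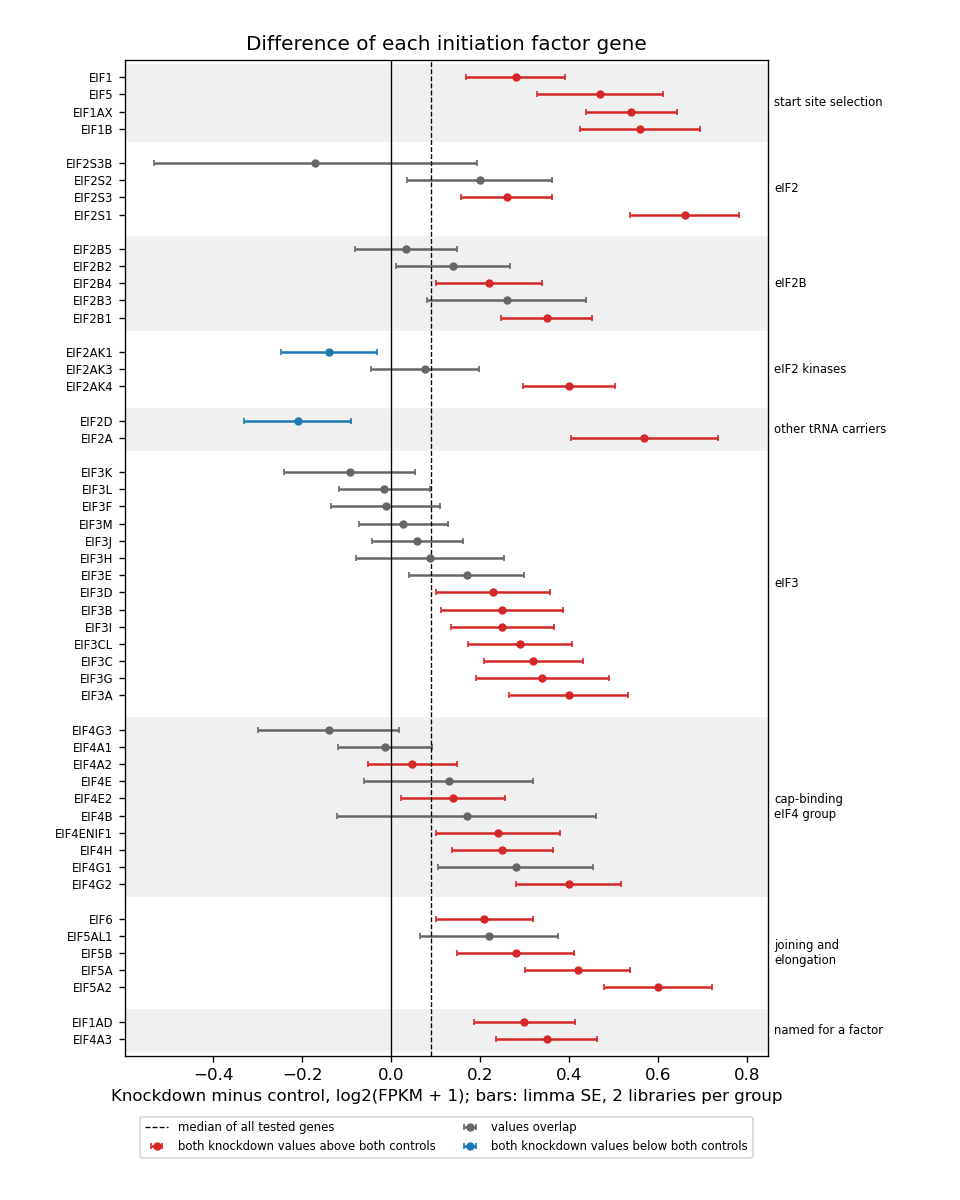
Knockdown minus control on the log2(FPKM + 1) scale for 49 initiation factor genes, by role, with limma's standard error from 2 libraries per group; colour shows whether the 2 knockdown values lie above, below or among the control values, and the dashed line is the median of all tested genes, 0.09. Start site factors lie farthest to the right as a group (0.28 to 0.56), while 7 subunits of eIF3 lie between -0.09 and 0.17.

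The factors that choose the start codon stood higher in both knockdown libraries, all 4 without overlap (against 35.6% of all tested genes) and with a median difference of 0.50. EIF1AX (chrX:20124518-20141844, minus strand), the eIF1A that helps the scanning subunit bind initiator tRNA, had 18.55 and 18.63 FPKM in control and 26.65 and 28.21 in knockdown libraries. As listed, the control libraries were nearly equal and both knockdown libraries lay well above them. The means differed 1.48-fold, with a log2 difference of 0.54 (SE 0.102, limma adjusted p = 0.0982). With the near-identical copy EIF1AXP1 added, the controls were further apart. The sums were then 43.59 and 37.37 FPKM in control and 53.54 and 64.11 in knockdown libraries. EIF1B, a paralog of EIF1, had 6.19 and 7.67 FPKM in control and 10.69 and 10.57 in knockdown libraries (log2 difference 0.56, SE 0.135, adjusted p = 0.120). EIF5, which makes eIF2 hydrolyse its GTP when the start codon is met, had 17.19 and 14.31 in control and 20.60 and 23.65 in knockdown libraries (log2 difference 0.47, SE 0.142, adjusted p = 0.160). EIF1, the guard against wrong start codons, was the most abundant of the 4, at 106.58 and 116.09 in control and 134.86 and 134.80 in knockdown libraries (log2 difference 0.28, SE 0.112, adjusted p = 0.238).

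Within eIF2, the carrier of initiator tRNA, the alpha subunit stood apart from the other subunits in size of difference. EIF2S1 (chr14:67359997-67386516, plus strand), the alpha subunit that the stress kinases phosphorylate, had 18.53 and 19.97 FPKM in control and 28.83 and 33.25 in knockdown libraries. Both knockdown values exceeded both controls by more than the spread within a group, 1.61-fold in means, and the log2 difference of 0.66 (SE 0.122) was the largest of the 49 on the log2(FPKM + 1) scale, with a limma adjusted p of 0.0971 that ran from 0.0751 to 0.311 over the alternative settings. By the ratio of means EIF5A2 was further apart, and in the authors' deposited table the log2 ratio is 0.69 for EIF2S1 and 0.82 for EIF5A2. EIF2S3, the gamma subunit that binds GTP and tRNA, had 69.77 and 67.24 in control and 81.44 and 82.47 in knockdown libraries (log2 difference 0.26, SE 0.103, adjusted p = 0.234). EIF2S2, the beta subunit, had the highest level of the 3, at 154.88 and 175.08 in control and 168.18 and 211.77 in knockdown libraries, with overlapping groups (log2 difference 0.20, SE 0.163, adjusted p = 0.516). Per transcript length the alpha subunit was thus the least abundant in every library, and the beta subunit the most. The retrogene EIF2S3B had 4.82 and 5.79 in control and 6.98 and 2.89 in knockdown libraries, its knockdown values lying on either side of the controls.

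The exchange factor eIF2B is built of 5 subunits, and all 5 lay above 0 in difference (against 61.4% of all tested genes). Their median was 0.22, against 0.09 for all tested genes, and 0.14 against 0.01 under median centring. EIF2B1, the regulatory alpha subunit, was the most abundant and had 15.05 and 14.59 FPKM in control and 19.60 and 18.79 in knockdown libraries. The groups were clearly apart, by a log2 difference of 0.35 (SE 0.102, limma adjusted p = 0.151). EIF2B4, the delta subunit, also did not overlap between groups, at 6.01 and 5.25 against 6.85 and 6.60. EIF2B2, EIF2B3 and the catalytic subunit EIF2B5 overlapped, with control means of 5.84, 3.82 and 9.90 FPKM and differences of 0.14, 0.26 and 0.03; the sign for EIF2B5 turned under median centring, quantile normalization and rescaling to nuclear genes, and without knockdown replicate 2.

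The 3 eIF2 kinases taken in by the rule differed among themselves. EIF2AK4, which codes for GCN2, the sensor of uncharged tRNA, had 7.77 and 7.66 FPKM in control and 10.66 and 10.31 in knockdown libraries, a log2 difference of 0.40 (SE 0.103, limma adjusted p = 0.131). EIF2AK1, which codes for the haem-regulated kinase HRI, was one of the 2 genes with both knockdown values below both controls, at 38.87 and 41.92 against 35.56 and 37.70 (log2 difference -0.14, SE 0.108, adjusted p = 0.491). EIF2AK3, which codes for PERK, the kinase of endoplasmic reticulum stress, overlapped between groups, between 3.16 and 3.64 FPKM. Counting by length, HRI mRNA was the most abundant of the 3 in every library.

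EIF2A and EIF2D, which can bring initiator tRNA to the ribosome without eIF2, lay on opposite sides of 0 in difference. EIF2A had 16.01 and 14.79 FPKM in control and 26.91 and 20.29 in knockdown libraries, all knockdown values above control but wide apart from each other (log2 difference 0.57, SE 0.165, limma adjusted p = 0.151). EIF2D, at 11.45 and 12.97 in control and 9.89 and 10.88 in knockdown libraries, had the lowest difference of all 49, -0.21 (SE 0.121, adjusted p = 0.362), and was the other gene with no overlap in that direction. The difference between these genes was not tested.

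eIF3, the largest initiation factor, holds the small subunit open for mRNA and blocks early joining of the large subunit. Its 14 genes had a median difference of 0.20, with 7 of 14 higher in knockdown without overlap, 7 overlapping and none lower, where 35.6% of all tested genes were higher and 19.2% lower without overlap. The 7 without overlap were EIF3A, EIF3B, EIF3C, its copy EIF3CL, EIF3D, EIF3G and EIF3I. EIF3C and EIF3CL are near-identical and are both counted here. With copies added to their source genes, the eIF3 median was 0.17. EIF3A, the scaffold of the complex, had 87.84 and 86.17 FPKM in control and 104.69 and 125.74 in knockdown libraries, the knockdown values spread more widely than the controls (log2 difference 0.40, SE 0.134, limma adjusted p = 0.185). EIF3C, the second scaffold, had 31.22 and 33.15 in control and 38.37 and 42.45 in knockdown libraries (log2 difference 0.32, SE 0.112, adjusted p = 0.196), and EIF3CL had 73.42 and 82.51 against 94.47 and 96.45 (log2 difference 0.29, SE 0.116, adjusted p = 0.232).

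The mobile module of EIF3B, EIF3G and EIF3I sits near the mRNA channel. EIF3G, an RNA-binding subunit, had 20.98 and 22.29 FPKM in control and 31.19 and 24.51 in knockdown libraries (log2 difference 0.34, SE 0.150, limma adjusted p = 0.264). EIF3I, a propeller-shaped subunit, had 90.72 and 101.53 against 114.73 and 114.51 (log2 difference 0.25, SE 0.116, adjusted p = 0.278). EIF3B, which bears a similar propeller, and EIF3D, which can bind the cap of some mRNAs, stood at control means of 27.8 and 46.3 and knockdown means of 33.2 and 54.4 FPKM.

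The other 7 subunits of eIF3 overlapped between the groups. EIF3F, which carries an MPN domain and is also known as a deubiquitinase, had 17.02 and 17.16 FPKM in control and 18.40 and 15.60 in knockdown libraries, the knockdown values on either side of the controls (log2 difference -0.01, SE 0.123, limma adjusted p = 0.964). EIF3L had 65.37 and 67.75 against 65.49 and 66.25, and EIF3M, both of them PCI domain subunits, had 29.28 and 28.55 against 29.21 and 29.81. EIF3E, EIF3H and EIF3K, with control means of 52.2, 36.1 and 44.0 FPKM, had differences of 0.17, 0.09 and -0.09, and the loosely bound EIF3J had 0.06. These 7 genes span control means of 17.1 to 66.6 FPKM, inside the 21.6 to 96.1 FPKM of the 7 that did not overlap except for EIF3F. The division was drawn after the values were seen and was not tested.

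**Figure D2:**
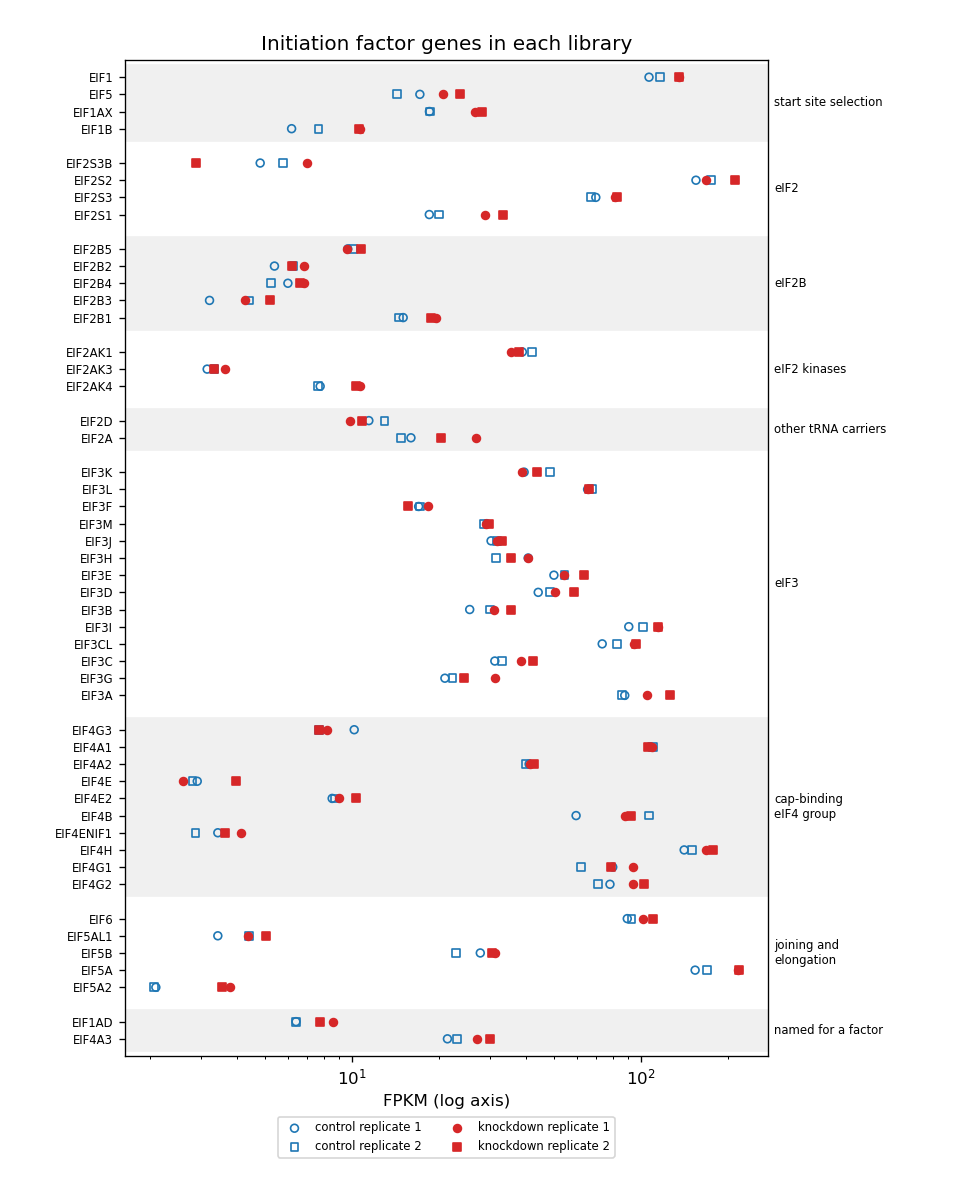
FPKM on a log axis for 49 initiation factor genes in 4 libraries, by role; open blue symbols are control and filled red symbols knockdown libraries, circles replicate 1 and squares replicate 2. Levels run from 2.07 for EIF5A2 to 218 for EIF5A, and the widest gap between replicates of a well expressed gene is that of EIF4B in the control libraries.

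Among the factors at the cap, EIF4E and the helicases EIF4A1 and EIF4A2 had differences no further from 0 than 0.13. EIF4E, the cap-binding protein, was listed at 2.92 and 2.81 FPKM in control and 2.61 and 3.96 in knockdown libraries, the knockdown values on either side of the controls (log2 difference 0.13, SE 0.190, limma adjusted p = 0.709). EIF4A1, the main helicase of initiation, had 106.95 and 110.09 against 108.75 and 106.13 (log2 difference -0.01, SE 0.105, adjusted p = 0.948). Its paralog EIF4A2 had 41.03 and 40.00 against 41.23 and 42.62, 2 groups that do not overlap but nearly touch (log2 difference 0.05, SE 0.1, adjusted p = 0.800). EIF4G1, the scaffold, had 79.84 and 62.04 against 93.59 and 78.52, overlapping (log2 difference 0.28, SE 0.175, adjusted p = 0.399), and the related EIF4G3 had 10.19 and 7.71 against 8.23 and 7.67. EIF4A1 and EIF4A2 share exons with small nucleolar RNAs and, for EIF4A1, with the readthrough gene SENP3-EIF4A1 on the same strand, and the division of reads among them can shift either value.

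EIF4G2 (also called DAP5), a relative of EIF4G1 that lacks the site for eIF4E and serves cap-independent initiation, had 78.10 and 70.78 FPKM in control and 94.12 and 102.29 in knockdown libraries. Both knockdown values lay above both controls, by a log2 difference of 0.40 (SE 0.118, limma adjusted p = 0.157). EIF4H, a helper of the helicase, had 141.00 and 149.93 against 168.00 and 177.73 (log2 difference 0.25, SE 0.114, adjusted p = 0.281). EIF4B, the other helper, had 59.63 and 106.89 in control and 87.79 and 92.50 in knockdown libraries, so the 2 controls lay on either side of the knockdown pair; its log2 difference was 0.17 with all libraries, 0.59 without control replicate 2 and -0.24 without control replicate 1. EIF4E2, a cap-binding repressor, had 8.55 and 8.74 against 9.04 and 10.30, and EIF4ENIF1, which carries eIF4E into the nucleus and to processing bodies, had 3.44 and 2.88 against 4.14 and 3.65.

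The factors that act when the ribosomal subunits join, and after, all lay above 0 (against 61.4% of all tested genes). Their median was 0.28, against 0.09 for all tested genes. EIF5A2 (chr3:170888415-170908693, minus strand), a paralog of EIF5A, had the low values given at the opening, 2.08 ± 0.0212 FPKM in control and 3.68 ± 0.163 in knockdown cells (mean ± SD, n = 2 per group). The gap between groups was many times the spread within them, 1.77-fold in means (log2 difference 0.60, SE 0.121, limma adjusted p = 0.105). EIF5A, the hypusine-bearing factor that keeps ribosomes moving through stretches such as polyproline, had 153.86 and 169.36 in control, just under EIF2S2, and 216.04 and 217.79 in knockdown libraries, the highest of the 49 there (log2 difference 0.42, SE 0.118, adjusted p = 0.146). EIF5B, the GTPase of subunit joining, had 27.81 and 22.98 against 31.37 and 30.56 (log2 difference 0.28, SE 0.131, adjusted p = 0.285). EIF6, which keeps the large subunit from joining too early, had 89.63 and 92.70 against 101.77 and 110.18 (log2 difference 0.21, SE 0.110, adjusted p = 0.324). The coding copy EIF5AL1 overlapped, between 3.44 and 5.06 FPKM.

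A pair of genes bear an initiation factor's name but act elsewhere, and both stood higher in knockdown without overlap (against 35.6% of all tested genes). EIF4A3, a core helicase of the exon junction complex, had 21.41 and 23.08 FPKM in control and 27.15 and 30.14 in knockdown libraries (log2 difference 0.35, SE 0.114, limma adjusted p = 0.177). EIF1AD, named for a domain like that of eIF1A, had 6.41 and 6.43 against 8.61 and 7.73 (log2 difference 0.30, SE 0.113, adjusted p = 0.213).

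Several levels above depend on copies of the same mRNA elsewhere in the genome. Reads of near-identical genes can be assigned to either, and 16 copies of 10 initiation factor genes were listed at 1 FPKM or more in at least 1 group, each at least 93.4% identical to its source transcript over the aligned bases. EIF4E shows this most: its processed pseudogene EIF4EP2 (chr17:49424269-49424922, minus strand) is 99.4% identical over 654 bases with 4 mismatches, and was listed at 12.78 and 14.18 FPKM in control and 13.56 and 17.42 in knockdown libraries, above EIF4E itself in every library. A stretch of 120 bases of coding sequence, from the start codon of EIF4E and at chr17:49424803-49424922 (GRCh38, minus strand) for the copy, shows how little tells them apart; capitals mark the mismatches.
EIF4E: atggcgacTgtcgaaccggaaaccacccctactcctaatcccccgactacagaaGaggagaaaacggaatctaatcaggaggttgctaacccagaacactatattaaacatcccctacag
EIF4EP2: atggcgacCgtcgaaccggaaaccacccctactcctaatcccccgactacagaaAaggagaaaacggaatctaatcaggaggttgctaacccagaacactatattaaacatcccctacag

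EIF3F has a copy on chromosome 2, EIF3FP3, that is 97.5% identical over 1086 bases and was listed at 32.55 and 31.70 FPKM in control and 36.08 and 27.43 in knockdown libraries. These values lay above those of EIF3F, and both genes had their highest value in knockdown replicate 1 and their lowest in knockdown replicate 2. The 120 bases with the most mismatches, at chr2:58252082-58252201 (GRCh38, plus strand) for the copy, hold 6; capitals mark them.
EIF3F: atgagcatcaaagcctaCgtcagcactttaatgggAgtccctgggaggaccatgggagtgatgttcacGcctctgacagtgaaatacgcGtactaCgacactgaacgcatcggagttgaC
EIF3FP3: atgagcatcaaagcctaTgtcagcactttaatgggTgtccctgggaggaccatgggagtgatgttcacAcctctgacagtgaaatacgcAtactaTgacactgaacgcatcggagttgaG

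Copies took a large share of the summed FPKM of 4 genes and a smaller share of the rest. For EIF4E that share was 81.4% to 83.9% over the libraries, for EIF3C with its copy EIF3CL 69.4% to 71.3%, for EIF3F 63.7% to 66.2% and for EIF1AX with EIF1AXP1 50.1% to 57.4%. EIF1AXP1 differs from its source at 2 of 435 bases, and EIF3CL at no base of the 3085 aligned apart from a gap. EIF4A1 (23.8% to 27.2%), EIF4B (16.1% to 24.0%) and EIF2S2 (15.4% to 17.7%) followed, with lower shares for EIF5A, EIF2S3 and EIF4H.

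With the copies added to their source before the test, the log2 difference was 0.53 (SE 0.148, limma adjusted p = 0.147) for EIF1AX, 0.30 for EIF3C, 0.43 for EIF5A and 0.18 for EIF4E, each close to its value without them. The summed EIF4E values were 15.70 and 16.99 FPKM in control and 16.17 and 21.38 in knockdown libraries, again with overlap. Only the sign of EIF4A1 turned among the 10, from -0.01 to 0.03. Sums of FPKM weight a short copy more than its reads would, so they are a guide to levels, not a count.

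**Figure D3:**
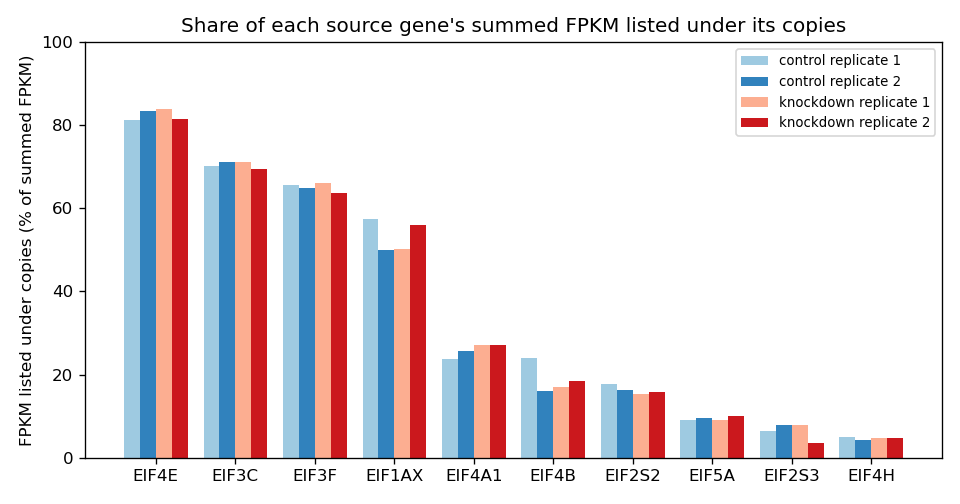
Share of summed FPKM (percent) that the table lists under the copies of 10 initiation factor genes, with 1 bar for each library; blue bars are control and red bars knockdown libraries. The share is above 50% in every library for EIF4E, EIF3C, EIF3F and EIF1AX, and changes little between libraries.

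The members also differ in the first letters of their mRNA. Transcripts that start with a C and a run of pyrimidines, called TOP mRNAs, are known to be translated under control of mTOR and of the binding protein LARP1; they include ribosomal protein and elongation factor mRNAs and a few initiation factors. The tract was sought on the gene's strand as a C at the RefSeq start and at least 4 further bases that are each C or T. Of 41 members with a promoter sequence 10 had it at a start (24.4%), against 7.61% of 8543 tested genes. The 30 bases around the start are shown for all 10 members with the tract, which is in capitals, and then for 4 of the 31 without it, those with the smallest p in the test.
EIF2A, chr3:150546772-150546801, plus strand: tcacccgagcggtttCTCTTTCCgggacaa
EIF2D, chr1:206612451-206612480, minus strand: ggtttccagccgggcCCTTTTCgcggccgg
EIF2S3, chrX:24054941-24054970, plus strand: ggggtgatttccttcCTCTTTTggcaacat
EIF2S3B, chr12:10505875-10505904, plus strand: ggggtgactttcttcCTCTTTTggcaacat
EIF3D, chr22:36529152-36529181, minus strand: gcgcgcgcatgtttcCTCTTTTCCTggttt
EIF3F, chr11:7987322-7987351, plus strand: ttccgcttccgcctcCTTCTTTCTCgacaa
EIF3K, chr19:38619173-38619202, plus strand: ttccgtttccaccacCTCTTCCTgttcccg
EIF3M, chr11:32583816-32583845, plus strand: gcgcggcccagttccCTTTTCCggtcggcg
EIF4A2, chr3:186783562-186783591, plus strand: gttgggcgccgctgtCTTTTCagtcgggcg
EIF4B, chr12:53006441-53006470, plus strand: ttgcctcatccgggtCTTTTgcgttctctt
EIF2S1, chr14:67360313-67360342, plus strand: gcgaggaggttccgcatgcgcggtggagtg
EIF1AX, chrX:20141824-20141853, minus strand: gcaaagagtcgcggcgccatttgctgccgc
EIF5A2, chr3:170908623-170908652, minus strand: cccgccccgtctcttggaactgccgcggcc
EIF1B, chr3:40309692-40309721, plus strand: tcggccattttgtgcgagaagccgcagcgc

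Sequences are those of RefSeq on GRCh38.p14. The 4 shown without the tract were picked by p and do not stand for all 31. EIF2AK1, EIF2S2, EIF3A, EIF3CL, EIF3E, EIF3G, EIF3H and EIF3L had no promoter sequence and are in neither set. Median control FPKM was 34.7 for members with the tract and 15.8 for those without. The 10 members with the tract (EIF2A, EIF2D, EIF2S3, EIF2S3B, EIF3D, EIF3F, EIF3K, EIF3M, EIF4A2 and EIF4B) had a median difference of 0.04, and 4 of them stood higher in knockdown without overlap (40.0%, against 31.8% of all tested genes with the tract). The 31 without it had a median of 0.26, and 21 of them stood higher without overlap (67.7%, against 38.7% of all tested genes without the tract). Over all tested genes the medians were 0.06 for 650 genes with the tract and 0.10 for 7893 without. Of the members with the tract, EIF2A (0.57) lay above the median of those without it, and EIF2S3 (0.26) and EIF3D (0.23) lay near it. EIF2S3 and its copy EIF2S3B are both counted among the 10. Under median centring the medians were -0.042 for members with the tract and 0.176 for those without. With the trend on GC and length removed they were -0.036 and 0.287. The split was made after the values were seen and was not tested, and an annotated start may differ from the one used in these cells.

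**Figure D4:**
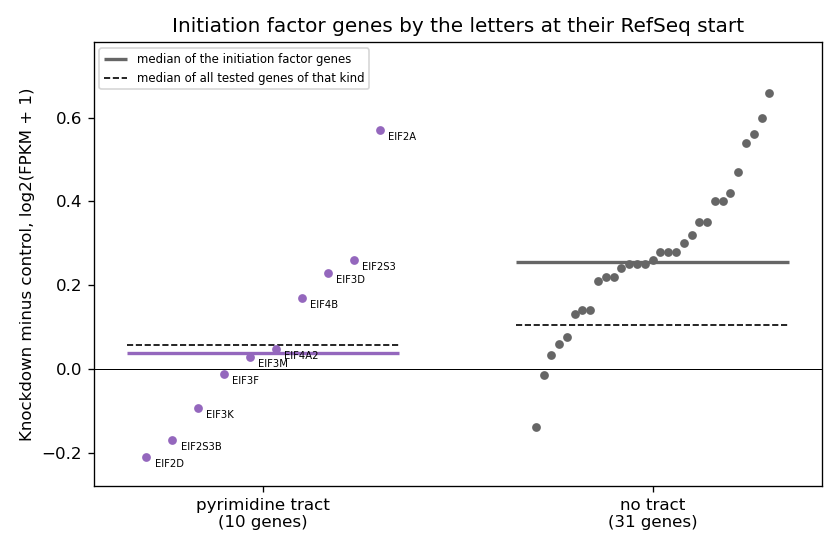
Knockdown minus control on the log2(FPKM + 1) scale for 41 initiation factor genes, split by whether a C and at least 4 more pyrimidines stand at a RefSeq start; each point is a gene, solid lines are medians of these genes (0.04 and 0.26) and dashed lines medians of all tested genes of that kind (0.06 and 0.10). Of the 10 genes with the tract, EIF2A lies highest at 0.57 and EIF2S3 next at 0.26.

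Other short motifs were looked for in the same RefSeq promoters, from 250 bases before to 50 after the start. CACGTG, the E-box letters read alike on both strands, was in 10 of 41 members (24.4%) and in 12.9% of tested genes. CCAAT was in 46.3% against 44.0% and CGGAAG in 46.3% against 40.6%, each on either strand. Such matches describe the letters and not a bound site.

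Genes that regulate initiation without carrying the name include binding proteins, phosphatases and recycling factors. Of 33 measured regulators at the cap, of kinases and of reinitiation, none passed over all genes, 17 stood higher in knockdown without overlap (against 35.6% of all tested genes), 2 lower (against 19.2%), and the median was 0.13, against 0.09 over all tested genes. PPP1R15A, the GADD34 subunit that directs dephosphorylation of eIF2 alpha, had 16.48 and 19.18 FPKM in control and 33.85 and 36.85 in knockdown libraries (log2 difference 0.95, SE 0.125, limma adjusted p = 0.0723). PAIP1, a partner of poly(A)-binding protein, had 21.22 and 24.09 against 38.57 and 45.83, DHX29, a scanning helicase, had 11.08 and 10.59 against 17.14 and 18.13, and ABCE1, which recycles ribosomes, had 19.87 and 19.57 against 29.79 and 31.39. The knockdown values of these 3 genes were all well above the controls, with adjusted p from 0.0836 to 0.0866. The repressors of eIF4E did not show this: EIF4EBP1 had 59.67 and 58.21 against 57.44 and 60.09, and EIF4EBP2 had 18.88 and 16.01 against 16.64 and 14.84. EIF2AK2, which codes for the double-stranded RNA sensor PKR, had 16.89 and 14.07 against 18.43 and 17.61 (adjusted p = 0.391).

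Elongation and termination factors had a median of 0.07 over 13 measured genes, near that of all tested genes, with none called. ETF1, the release factor that reads stop codons, had 35.39 and 35.43 FPKM in control and 51.16 and 52.41 in knockdown libraries (log2 difference 0.54, SE 0.0992, limma adjusted p = 0.0969). HBS1L, a ribosome rescue factor, had 3.15 and 2.72 against 4.07 and 4.85. EEF2K, the kinase that inactivates elongation factor eEF2, and EEFSEC, which delivers selenocysteine, lay below the controls, at 4.78 and 4.26 against 3.26 and 2.80 and at 8.84 and 7.99 against 7.16 and 6.0. EEF1G, named after its values were seen, had 363.28 in control replicate 1 and 856.86 to 925.73 in the other 3 libraries, a low value in the same library as that of EIF4B.

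Of the 8 genes around hypusine, the modified lysine found in EIF5A, and its precursor polyamines, all lay above 0 (against 61.4% of all tested genes), 5 stood higher without overlap (against 35.6%), none was called, and the median was 0.30. ODC1, the entry enzyme of polyamine synthesis, had 23.94 and 25.57 FPKM in control and 44.59 and 49.54 in knockdown libraries (log2 difference 0.90, SE 0.113, limma adjusted p = 0.0723). SRM, the spermidine synthase, had 18.26 and 17.18 against 27.39 and 23.15, DOHH, which completes hypusine, had 3.85 and 4.68 against 7.09 and 5.93, and AZIN1, an activator of ODC1, had 34.06 and 34.65 against 44.97 and 42.33. DHPS, which begins the modification, overlapped, with means of 3.21 and 3.47 FPKM.

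Initiation and elongation factors of the mitochondrial ribosome gave a median of 0.23 over 8 genes, against 0.09 for all tested genes. None was called, and 4 stood higher in knockdown without overlap, against 35.6% of all tested genes. Rescaled to nuclear genes the median was 0.19, against 0.06 for all tested genes, and under median centring 0.15 against 0.01. GFM1, a mitochondrial elongation factor, had 8.32 and 8.28 FPKM in control and 12.05 and 13.08 in knockdown libraries, and its relative GFM2 had 14.62 and 14.87 against 16.84 and 19.03. The initiation factors differed in direction: MTIF2 had 11.59 and 11.90 against 15.50 and 17.53, whereas MTIF3 had 15.56 and 20.76 against 13.65 and 14.84, with limma adjusted p of 0.126 and 0.331. Mitochondrially encoded mRNAs, which these factors serve, were the share of the libraries that was smaller in knockdown. A link between that share and these factors was not tested.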

How the data were processed

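The authors deposited FPKM values with 2 decimals, 1 column for each of 4 libraries, and 0 columns had no sample of the series. The authors' deposited table also gives the ratio of mean FPKM, knockdown over control, and its log2. Per the submitters' processing notes, the tools were HISAT2 2.0.4, cutadapt 1.9, edgeR, DESeq2 and StringTie 1.3.4d, whose roles are not stated. The genome build is not given in the sources used here, nor is the strand setting or the treatment of reads with several positions. Per the labels' protocols, libraries were made from poly(A) RNA with dUTP and read as pairs of 150 bases.

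Depth is unknown: at the best depth tried, 26.3% to 30.1% of low values of genes with 1 transcript came within 0.1 of a whole read, against a median of 18.8% to 19.1%, so whole reads were not recovered. The 12411 genes whose mean reached 1 FPKM in either group entered a two-sided test of log2(FPKM + 1) in limma 3.58.1 (R 4.3.3), with a trended prior variance and no term but group. P-values were adjusted by Benjamini-Hochberg over these genes and read at 0.05. For 1 gene alone, the smallest p of an exact permutation of 2 libraries against 2 is 0.333. On simulated data of 12411 genes for the knockdown against control comparison, 82% of genes changed 2-fold and 100% changed 4-fold were recovered. False calls made up 8.86% of calls. The simulation drew normal noise with limma's smoothed spread as the true spread, and changed only genes with a mean log2(FPKM + 1) above 2. Its recovered shares are therefore not the power in the measured data. There PPP1R15A, at a ratio of 1.98, had a limma adjusted p of 0.0723, and WFDC21P, 12.9-fold lower, had 0.0715. Positions, lengths and GC came from GENCODE 29 (GRCh38; 58552 of 58825 gene IDs found), and copies were aligned with blastn 2.17.0. Symbols with a letter or digit required after the first digit would leave 49 matching genes in place of 52. Statistics are given for the 20 members with the smallest p and a fixed set of core factors, and for up to 4 genes of each other list; EIF2AK1, EIF2D, EIF3F, EIF4B and EEF1G were singled out after their values were seen. The members and lists were chosen with earlier results of these data known.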

Additional observations from a re-analysis of the deposited data

How the results depend on the processing

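Over 14 alternatives the count of initiation factor genes past the threshold stayed at 0. In those that kept all 4 libraries, 6 to 23 of these genes had an unadjusted p under 0.05. The 6 came under median centring, all higher in knockdown (12.2%, against 9.54% of all tested genes). With either direction counted, their share under median centring lay below that of all tested genes. The 23 came with the replicate block, where the share of all tested genes with such a p was also larger than in the main test. That share, with either direction counted, lay below the share of the initiation factor genes. Over all genes the 31 calls became 20 with GC and length removed, 57 under quantile normalization, 58 with a filter of 5 FPKM, 0 without a filter and 0 with the replicate block; leaving out 1 library gave 0 in each case. The numbers of the replicates come from the labels, and deviations of same-numbered libraries from their group means correlated at 0.124, which with 2 pairs does not show pairing. The median of the 49 genes, 0.236, was 0.156 under median centring, 0.152 under quantile normalization and 0.190 to 0.283 with 1 library left out. Of the 49 genes 35 kept their sign throughout, and 14, with main differences from -0.17 (EIF2S3B) to 0.17 (EIF4B), did not. Under median centring these were EIF2AK3 (-0.0028), EIF2B5 (-0.046), EIF3J (-0.021), EIF3M (-0.051) and EIF4A2 (-0.032). Under quantile normalization they were EIF2B5 (-0.075), EIF3H (-0.031), EIF3J (-0.067), EIF3M (-0.088) and EIF4A2 (-0.062), and with rescaling to nuclear genes EIF2B5 (-0.0061) and EIF3M (-0.014). With GC and length removed they were EIF3J (-0.025), EIF3M (-0.093), EIF4A1 (0.019) and EIF4A2 (-0.066), and with copies summed EIF4A1 (0.031). With 1 library left out, signs turned within these ranges: EIF2B5 -0.04 to 0.11, EIF2S3B -0.69 to 0.34, EIF3F -0.12 to 0.10, EIF3H -0.094 to 0.27, EIF3K -0.24 to 0.055, EIF3L -0.04 to 0.011, EIF4A1 -0.035 to 0.0064, EIF4B -0.24 to 0.59, EIF4E -0.098 to 0.36, EIF4G3 -0.32 to 0.039, EIF4EBP1 -0.036 to 0.028 and EEF1G -0.079 to 1.27. EIF4EBP1 was 0.19 with GC and length removed. The median of elongation and termination factors was -0.006 under median centring and -0.028 to 0.17 with 1 library left out. The GC and copy settings were added after the data were seen. The cause was not tested.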
